A study of Sus scrofa with 4 samples.

Results

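The genes described here handle the uptake of fatty acids and of lipoprotein lipid: CD36, LPL, ANGPTL4, VLDLR, SCARB1, ACSL1, ACSL3, ACSL4 and ACSL5. They were chosen by gene name, and these 9 names had 32 of the 43603 probes and were 9 of the 34853 gene names on a porcine oligonucleotide array. PIP cells, a porcine intramuscular preadipocyte line from the longissimus thoracis of a Duroc pig, were compared with porcine mature adipocytes (pMA) made from them. To make pMA, the cells were kept for 4 days with insulin (50 ng/ml), dexamethasone (0.25 μM), octanoate (2 mM) and oleate (200 μM). Other pMA were then stimulated over 12 h, either with serotonin at 100 μM (the labels write this dose per ml) or with TNF-α at 2.5 µg/ml. All pMA therefore shared the glucocorticoid and both added fatty acids, which the PIP cells did not receive. The study has 1 array for each of the 4 conditions, each labelled from pooled RNA of 1 cell line. The array differences below therefore have no replicate arrays and carry no p-values. RT-qPCR in the paper, over independent experiments, covered some of the genes named below, CD36 among them.

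Adipocytes take up fatty acids mainly from triglyceride-rich lipoproteins. LPL is secreted and splits their triglycerides, ANGPTL4 is a secreted inhibitor of LPL, and VLDLR binds such lipoproteins at the cell surface. CD36 and SCARB1 are related membrane receptors, CD36 for long-chain fatty acids and SCARB1 for high density lipoprotein. The ACSL enzymes then couple the fatty acids to coenzyme A, which keeps them in the cell and prepares them for esterification or oxidation.

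A reading on this array rests on probes of 60 bases. Coding probes of CD36, LPL, ANGPTL4 and VLDLR are printed here, with positions counted along the target transcript named by the array. The probes that stand for CD36, LPL and VLDLR below, at 2173, 2473 and 3078, are not among them. For CD36 (position 399) the capitals mark the start codon, and the 12 bases before it are left out. For the ANGPTL4 probes at 433 and 567 the capitals mark the 57 bases they share, so they are not independent readings.
CD36 399: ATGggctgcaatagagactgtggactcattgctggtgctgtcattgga
CD36 834: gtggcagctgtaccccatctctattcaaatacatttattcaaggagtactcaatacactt
LPL 335: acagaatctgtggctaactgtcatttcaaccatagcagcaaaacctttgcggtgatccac
LPL 669: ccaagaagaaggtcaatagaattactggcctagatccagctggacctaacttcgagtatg
ANGPTL4 433: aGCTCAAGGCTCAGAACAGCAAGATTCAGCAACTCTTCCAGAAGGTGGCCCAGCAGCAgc
ANGPTL4 567: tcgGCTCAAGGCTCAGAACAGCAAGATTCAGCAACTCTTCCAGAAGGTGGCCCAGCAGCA
ANGPTL4 1196: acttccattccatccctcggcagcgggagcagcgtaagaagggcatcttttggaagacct
VLDLR 410: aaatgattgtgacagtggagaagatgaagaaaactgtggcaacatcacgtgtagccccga

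In the acyl-CoA synthetases, 1 probe of ACSL3 and 2 of ACSL4 hold the same 20 bases, in capitals. They are shown because transcripts of either gene carry this stretch, and whether either gene's RNA adds to the other's signal was not tested. The ACSL4 probes at 2085 and 2089 overlap by 56 bases. None of these 3 probes is the only reading of its gene.
ACSL3 2320: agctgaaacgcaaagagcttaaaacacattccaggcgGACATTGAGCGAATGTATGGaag
ACSL4 2085: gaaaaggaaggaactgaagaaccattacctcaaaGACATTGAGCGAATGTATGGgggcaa
ACSL4 2089: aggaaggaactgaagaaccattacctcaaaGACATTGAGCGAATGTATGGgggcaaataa

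Values below are log2 levels, with 0 at the 75th percentile of intensity on each array, and log2 ratios, which are differences between such levels. That percentile was an intensity of 515 in PIP cells, 479 in unstimulated pMA, 566 after serotonin and 559 after TNF-α, and between 56.5% and 66.0% of the probes were well above background. The probe of a gene with the highest mean level stands for it as its leading probe, and its other probes are given by their range. A gene is said to rise or fall only where its ratio was at least 2-fold, a log2 ratio of 1. Spots of the same probe repeated on an array gave a standard deviation of 0.09 to 0.10 for a log2 ratio of bright probes and 0.28 to 0.35 for dim ones, which covers spot noise and no variation between cultures. Of the 32 probes, 30 were well above background on all 4 arrays, the exceptions being 2 CD36 probes in PIP cells. In bulk RNA, fewer cells with a transcript and less transcript per cell cannot be told apart. Negative-control spots had a net signal of 42.6 after serotonin and 41.4 after TNF-α, outside Agilent's range, against 33.3 and 39.9 on the other arrays.

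Against the label of mature adipocyte, 7 of the 10 adipocyte markers on the array were above background in pMA, the same number as in PIP cells. CIDEC rose, at a log2 ratio of 3.87 but 0.75 at its other probe. FABP4 also rose, at 3.08 or more, as did PPARG, at 1.07 with probes from 0.96 to 1.52. PLIN1, which coats lipid droplets, was not well above background in any condition, and CEBPA was not above it in PIP cells or unstimulated pMA. ADIPOQ was above background in PIP cells and on none of the pMA arrays. CIDEA, LEP, GPD1 and PCK1 did not pass 2-fold on differentiation, at -0.49, 0.31, 0.24 and 0.22. Of the 8 skeletal muscle markers on the array, MYOD1, MYF5 and MYH2 were above background on no array, whereas MYOG, PAX7, DES and CKM were above it on all 4. Of the 6 endothelial markers, CDH5, TEK and CLDN5 were above it on none, and PECAM1 and KDR on all 4.

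On differentiation, CD36 and ANGPTL4 rose and the other 7 genes stayed within 2-fold of PIP cells. Thus 2 of 9 genes rose, whereas 9.92% of all gene names with a ratio did, and none of the 9 fell, against 3.56% of all. The 9 genes had a median log2 ratio of 0.37, and all 18635 gene names one of 0.12. Of all gene names past 2-fold, 73.6% were higher in pMA, but this share was 54.6% after quantile normalization, 34.1% after scaling to the median and 91.7% after scaling to spike-in controls.

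After serotonin, LPL and CD36 rose and VLDLR fell. The 2 genes that rose compare with 2.08% of 19093 gene names, and the 1 that fell with 4.74%. The median of the 9 genes was 0.06, near that of all gene names at 0.01. After TNF-α, LPL alone among the 9 rose and none fell, where 2.21% of 19785 gene names rose and 1.34% fell, and the medians were 0.09 and 0.01. Both stimulated arrays were set against the same unstimulated array, so their ratios share its error. Higher genes made up 30.5% of those past 2-fold after serotonin (43.7% with spike-in scaling) and 62.3% after TNF-α (49.3% after quantile normalization and 50.2% with median scaling).

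The stimulated arrays could also be set against each other without the unstimulated array. LPL was higher and VLDLR lower after serotonin than after TNF-α, 1 gene in each direction, where 1.82% of 21864 gene names were higher and 5.08% lower. The medians were -0.12 for the 9 genes and -0.04 for all. The share of higher genes, 26.4%, was 39.3% after quantile normalization and 40.4% with median scaling.

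**Figure D1:**
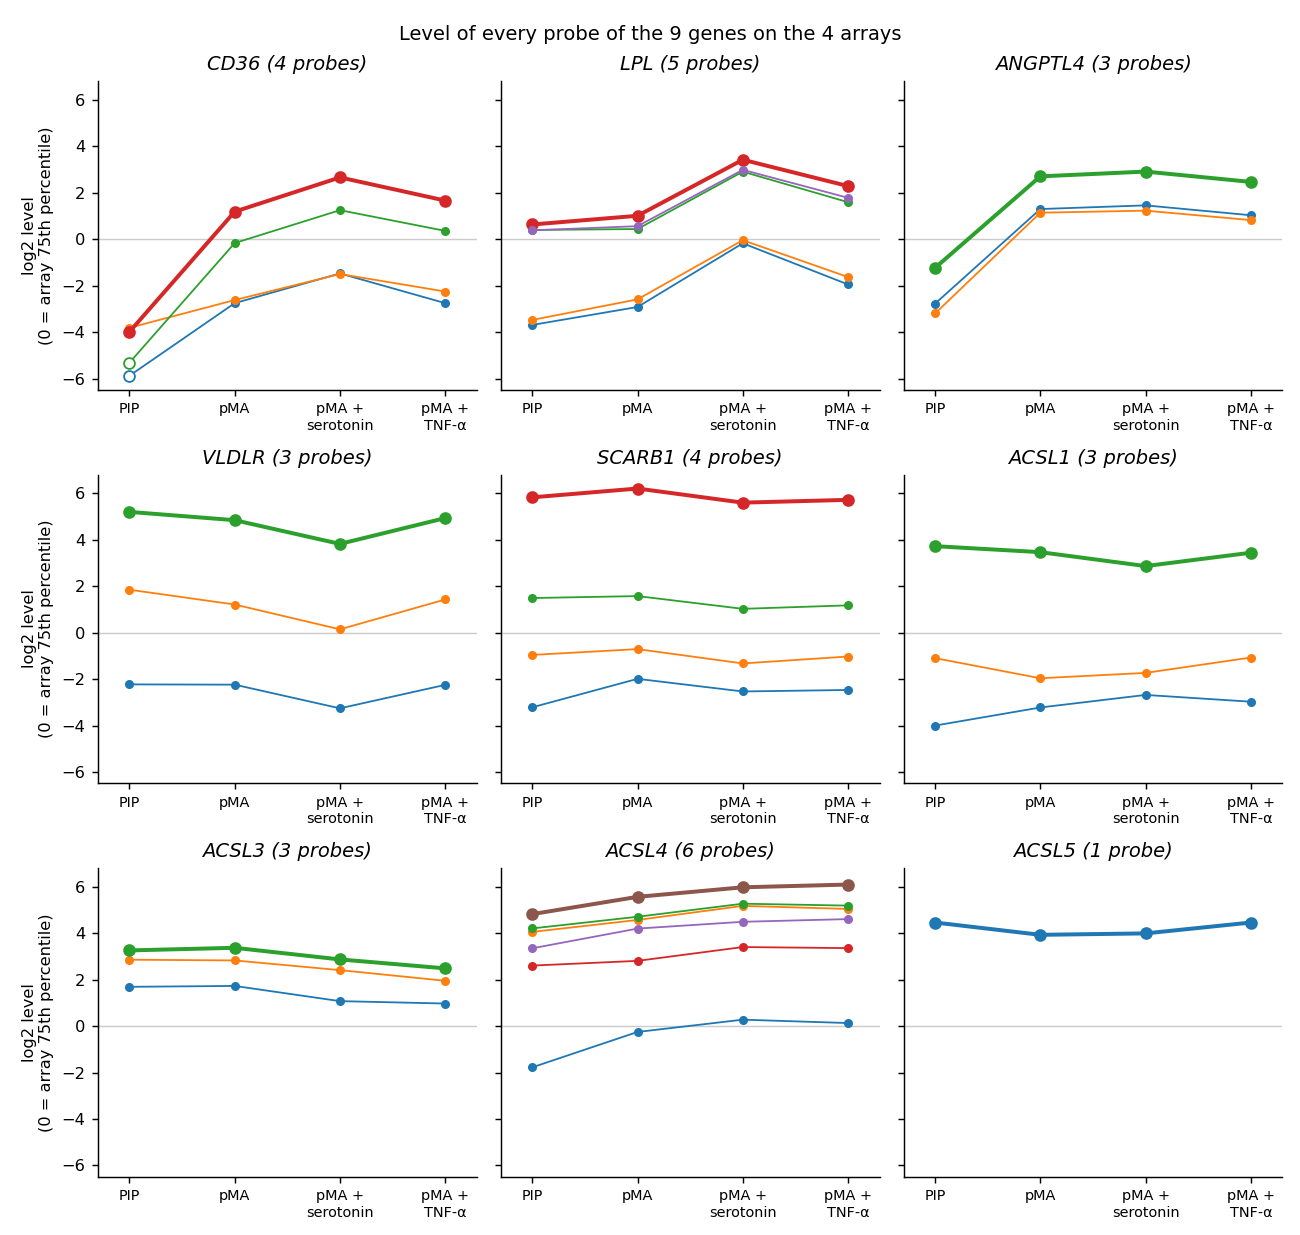
log2 level (0 = 75th percentile of the array) of each of the 32 probes in PIP cells, unstimulated pMA, pMA with serotonin and pMA with TNF-α, 1 array each. The thick line is the probe that stands for the gene, and open circles are readings not well above background; CD36 and ANGPTL4 climb from PIP cells to pMA, LPL climbs on stimulation, and VLDLR dips after serotonin.

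LPL, the secreted lipase, was the gene that rose with both stimuli. Its leading probe, at position 2473, had an intensity of 796 in PIP cells, 958 in unstimulated pMA, 6026 after serotonin and 2715 after TNF-α. These gave levels of 0.63, 1.00, 3.41 and 2.28. The order was therefore PIP cells, pMA, TNF-α and serotonin, and each step was larger than 2 standard deviations of repeated spots. The step from PIP cells to pMA depended on the scaling, however. It was 0.025 with median scaling and 0.70 with spike-in scaling, so the order of these 2 is not settled.

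LPL rose 5.32-fold after serotonin, a log2 ratio of 2.41, and 40 of the 19093 gene names had a ratio that high. All 5 LPL probes passed 2-fold, from 2.41 to 2.74. After TNF-α it rose 2.42-fold (1.28). Of the 5 probes 3 passed 2-fold, and the coding probes at 335 and 669, printed above, lay just under it at 0.97 and 0.96. Set directly against TNF-α, serotonin left LPL 2.19-fold higher (1.13), with all 5 probes past 2-fold and from 1.13 to 1.77. In the paper's array section LPL is listed as higher after serotonin but unchanged after TNF-α.

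The differentiation ratio of LPL was 0.37 and its probes ran from 0.04 to 0.89, so LPL did not pass 2-fold between PIP cells and pMA. The pair of coding probes was dim in both states, with levels of -3.69 and -3.48 in PIP cells and -2.92 and -2.59 in pMA. These probes gave 0.77 and 0.89 on differentiation, and the 3 probes farther along the transcript gave 0.04 to 0.37. In unstimulated pMA the LPL transcript was thus within 2-fold of its preadipocyte level at each of the 5 probes.

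ANGPTL4, the inhibitor of LPL, rose before stimulation and not with it. Its leading probe (1196) had an intensity of 218 in PIP cells, 3105 in unstimulated pMA, 4232 after serotonin and 3073 after TNF-α. The levels were -1.24, 2.70, 2.90 and 2.46. All 3 pMA conditions lay far above PIP cells and within 0.44 of each other.

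ANGPTL4 rose 15.3-fold on differentiation (3.94), and 14 of 18635 gene names had a ratio at or above it. The probes at 433 and 567 gave 4.07 and 4.33. After serotonin the ratio was 0.21 and after TNF-α -0.24, with all 3 probes above 0 after the first and below 0 after the second. Neither change reached 2-fold. LPL and its inhibitor thus passed 2-fold in different comparisons, ANGPTL4 in pMA against PIP cells and LPL after either stimulus, and no test of that contrast was possible.

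CD36, the long-chain fatty acid receptor, rose in both the differentiation and the serotonin comparison. At its leading probe (2173) the intensity was 32.4 in PIP cells, 1084 in unstimulated pMA, 3557 after serotonin and 1761 after TNF-α. The levels were -3.99, 1.18, 2.65 and 1.66. The span of 6.64 between PIP cells and serotonin-treated pMA was the widest of the 9 genes at their leading probes.

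The differentiation ratio at this probe was 5.17, or 36.0-fold, and 4 of 18635 gene names had a ratio that high. The size depended on the background correction and on the probe. It was 3.67 with normexp background correction and 3.66 as the median over the probes. The probe at 834 was measured on both arrays and gave 1.19, or 2.29-fold. In PIP cells the probes at 399 and 1969 were too dim, not well above background, and gave lower bounds, at least 5.18-fold and at least 31.0-fold. All 4 probes passed 2-fold in the same direction. In unstimulated pMA the probes at 399, 834, 1969 and 2173 read -2.76, -2.62, -0.17 and 1.18, and what sets the probes apart was not tested.

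On serotonin CD36 rose 2.78-fold (1.47), with 147 of 19093 gene names as high. Its 4 probes were much closer here, from 1.12 to 1.47. The paper's RT-qPCR also had CD36 higher after serotonin, and the paper does not name CD36 among the genes raised after TNF-α. After TNF-α the ratio was 0.48 and the probes ran from 0.00 to 0.52, so none reached 2-fold. Set against TNF-α, serotonin gave a ratio of 1.00, a fold change just short of 2, and the 4 probes ran from 0.75 to 1.28. It passed 2-fold under quantile normalization, with median or spike-in scaling and in the submitters' value table.

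**Figure D2:**
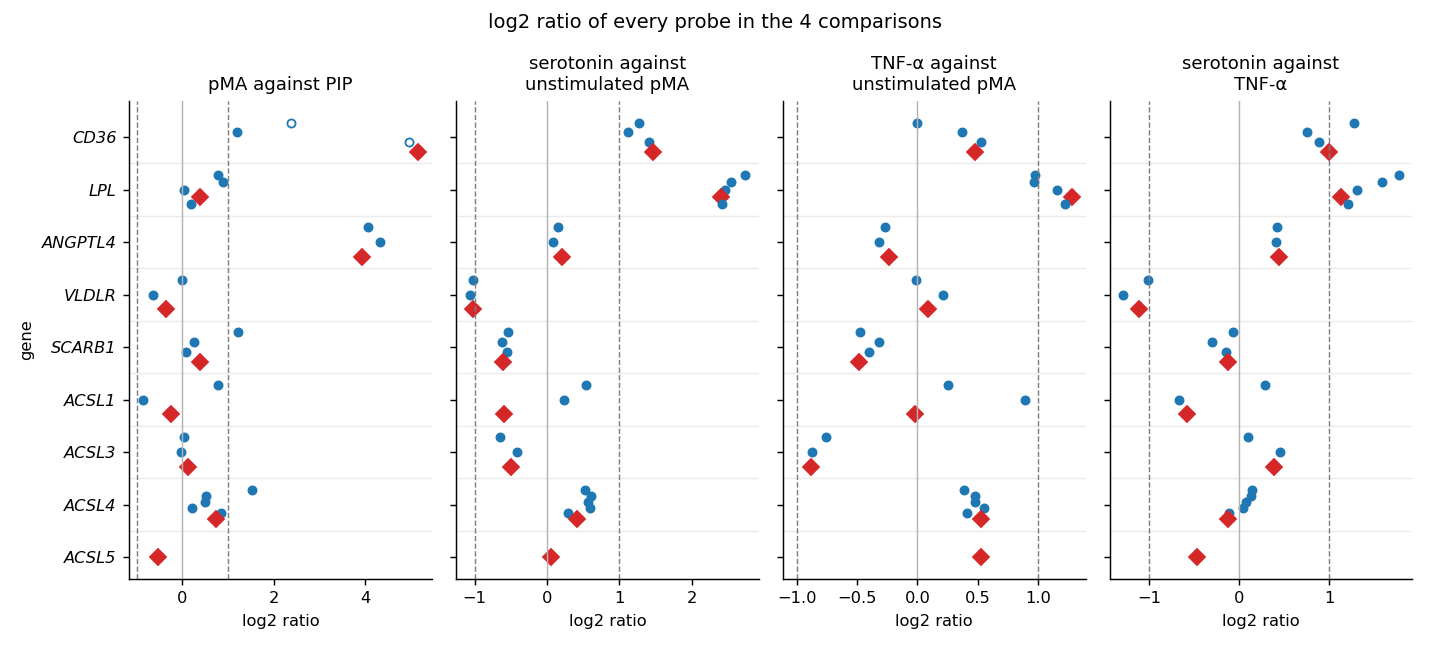
log2 ratio of each probe of the 9 genes in the 4 comparisons (the horizontal scale differs between panels; dashed lines mark 2-fold, red diamonds the probe that stands for the gene, open symbols lower bounds). The 5 LPL probes and 4 CD36 probes lie beyond 2-fold after serotonin, the 3 VLDLR probes lie just beyond it on the other side, and the 4 CD36 probes spread from 1.19 to 5.17 on differentiation.

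VLDLR, the surface receptor for triglyceride-rich lipoproteins, was lowest after serotonin. Its leading probe (3078) had an intensity of 18788 in PIP cells, 13646 in unstimulated pMA, 7949 after serotonin and 16959 after TNF-α. The levels were 5.19, 4.83, 3.81 and 4.92. Unstimulated and TNF-α-treated pMA differed by less than 2 standard deviations of repeated spots, and the serotonin array lay below the other 3.

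After serotonin VLDLR was 2.03-fold lower (-1.02), and its 3 probes gave -1.07 to -1.02. After TNF-α the ratio was 0.09, with probes from -0.01 to 0.22, whereas the paper's array section lists VLDLR as lower after both stimuli. In the direct comparison VLDLR was 2.16-fold lower after serotonin than after TNF-α (-1.11), and all 3 probes passed 2-fold, but with median scaling this ratio, at -0.99, missed it. On differentiation it was at -0.36 and its probes ran from -0.64 to -0.01. The fall after serotonin was a narrow one: over 9 processing settings its log2 ratio lay between -1.03 and -0.92, and it missed 2-fold under quantile normalization, median scaling, spike-in scaling and normexp background correction.

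SCARB1, the receptor for high density lipoprotein, passed 2-fold in no comparison. Its leading probe (2557) had levels of 5.82 in PIP cells, 6.19 in unstimulated pMA, 5.59 after serotonin and 5.71 after TNF-α. Unstimulated pMA had the highest level, and the other 3 conditions were 0.12 and 0.11 apart from neighbour to neighbour, under 2 standard deviations of repeated spots. The ratios were 0.38 on differentiation, -0.61 after serotonin and -0.49 after TNF-α.

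All 4 SCARB1 probes were below 0 after serotonin (-0.62 to -0.54) and after TNF-α (-0.49 to -0.32). On differentiation 3 of them gave 0.08 to 0.38. The coding probe at 344, with levels of -3.22 in PIP cells and -1.99 in pMA, gave 1.22 and was the 1 SCARB1 probe past 2-fold in any comparison. SCARB1 was thus lower after both stimuli at every probe, by less than the 2-fold limit. By contrast, the paper's array section lists it as higher after TNF-α and unchanged after serotonin.

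Among the enzymes that activate fatty acids, none of the 4 ACSL genes passed 2-fold at its leading probe in any comparison. ACSL4, which prefers arachidonic acid, came nearest on differentiation. Its leading probe (4760) had levels of 4.81 in PIP cells, 5.56 in unstimulated pMA, 5.97 after serotonin and 6.08 after TNF-α. All 3 pMA arrays were above the PIP array, and the stimulated pair differed by less than 2 standard deviations of repeated spots.

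The ACSL4 ratios were 0.74 on differentiation, 0.41 after serotonin and 0.53 after TNF-α. All 6 probes were above 0 in each of these comparisons, from 0.20 to 1.52 on differentiation, 0.29 to 0.61 with serotonin and 0.38 to 0.55 with TNF-α. The 1.52 came from the probe at 314, the only ACSL4 probe past 2-fold. Scaling to spike-in controls placed the gene past 2-fold on differentiation, at 1.07. ACSL4 is listed in the paper's array section as higher after both stimuli, where no probe passed 2-fold here.

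ACSL3, an enzyme of the endoplasmic reticulum and lipid droplets, was lowest after TNF-α. Its levels at the leading probe (2320) were 3.25 in PIP cells, 3.36 in unstimulated pMA, 2.86 after serotonin and 2.48 after TNF-α. The ratio was -0.88 after TNF-α, or 1.85-fold lower, and 403 of 19785 gene names had a ratio at or below it. After serotonin it was -0.50. The 3 probes lay between -0.88 and -0.76 after TNF-α and between -0.65 and -0.42 after serotonin. PIP cells and unstimulated pMA differed by 0.11, less than 2 standard deviations of repeated spots, and this difference changed sign with median scaling, at -0.24.

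ACSL1, a synthetase abundant in fat tissue, could not be given a direction, because its 3 probes disagreed. The leading probe (3070) had levels of 3.72, 3.46, 2.86 and 3.43 in PIP cells, unstimulated pMA, serotonin-treated and TNF-α-treated pMA. Its ratios were -0.26 on differentiation, -0.60 after serotonin and -0.02 after TNF-α. The probe at 2506 gave -0.87, 0.23 and 0.89 in these comparisons and the probe at 1314 gave 0.78, 0.54 and 0.25. No ACSL1 probe passed 2-fold, whereas the paper's array section lists ACSL1 as higher after serotonin and unchanged after TNF-α.

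ACSL5, a mitochondrial and reticular synthetase, had 1 probe, at 2546. The levels were 4.45 in PIP cells, 3.92 in unstimulated pMA, 3.98 after serotonin and 4.45 after TNF-α. The ratios were -0.53 on differentiation, 0.06 after serotonin and 0.53 after TNF-α. TNF-α-treated pMA stood at the level of PIP cells, and unstimulated and serotonin-treated pMA did not differ by 2 standard deviations of repeated spots. ACSL3, ACSL4 and ACSL5 thus stood at -0.88, 0.53 and 0.53 after TNF-α and none of them reached 2-fold.

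**Figure D3:**
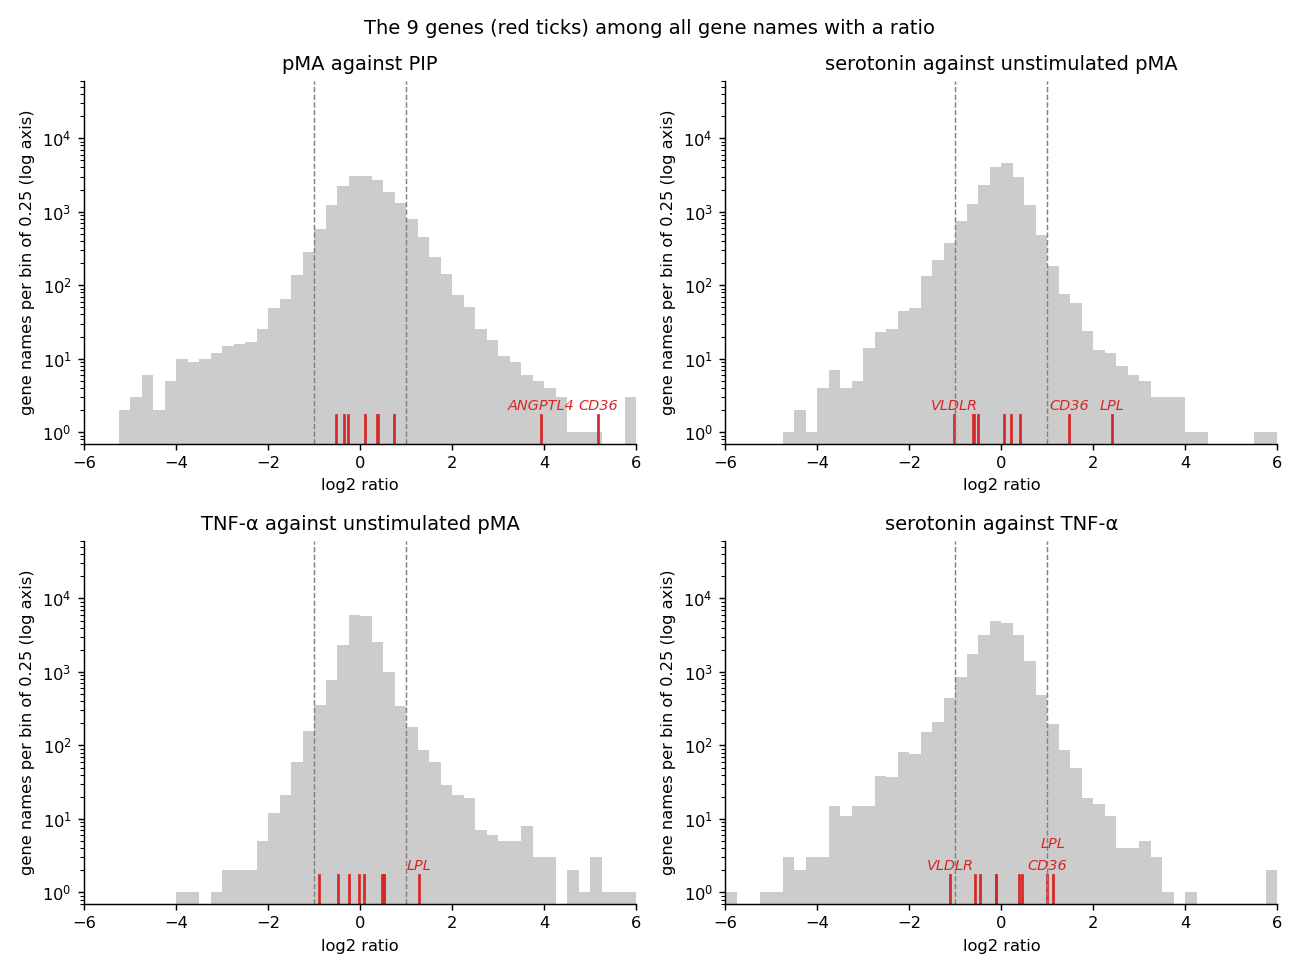
Number of gene names per bin of log2 ratio (grey, log vertical axis) in the 4 comparisons, with red ticks for the 9 genes and dashed lines at 2-fold; ratios beyond 6 are counted in the end bins. ANGPTL4 and CD36 sit at the far right on differentiation, LPL at 2.41 and CD36 at 1.47 after serotonin, and the remaining ticks lie mostly between the lines.

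The partners of these genes were read from 5 lists. Of 20 partners and regulators of LPL, 7 were on the array under those names and 5 had a ratio. APOE, a ligand of the lipoprotein receptors, was at least 2.18-fold higher in pMA than in PIP cells, and no other partner rose and none fell. SDC4, a heparan sulfate proteoglycan of the cell surface, rose 2.06-fold after TNF-α (1.04), and no partner passed 2-fold after serotonin. LIPC was not well above background on any array. GPIHBP1, LMF1, LRP1 and ACSL6 were not analysed here, as no probe carried those names.

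Of the 14 lipoprotein receptor genes 7 were on the array and 6 had ratios. MYLIP, a ubiquitin ligase that marks VLDLR for degradation, was 2.70-fold lower after TNF-α (-1.43). Its 2 probes gave -1.43 and -1.25. After serotonin it stood at -0.18, and it was 2.38-fold higher with serotonin than with TNF-α. No other gene of this list passed 2-fold in any comparison. The medians of the list were 0.23, -0.11 and -0.10 on differentiation, serotonin and TNF-α.

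Fatty acid transport and binding genes numbered 27, with 17 on the array and 12 with a ratio in each comparison against PIP cells or unstimulated pMA. On differentiation, SLC27A1, a fatty acid transport protein, rose 2.77-fold (1.47) and FABP4, the adipocyte fatty acid binding protein, at least 8.48-fold. FABP3, the heart form, fell by 1.57 and CAV1, the main protein of caveolae, by 1.12 on the log2 scale. SLC27A3 stood at 0.29 and SLC27A4 at 0.09.

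On these arrays FABP4 moved in opposite directions with the stimuli. The paper's array section instead lists FABP4 as higher after both stimuli. Its RT-qPCR, over independent experiments, had FABP4 significantly lower after both serotonin and TNF-α. The array rise after TNF-α therefore lacks backing from the RT-qPCR, and the array fall after serotonin runs against the paper's array listing. The leading FABP4 probe had levels of -1.67 in unstimulated pMA, -4.44 after serotonin and -0.23 after TNF-α. In PIP cells its reading was dim. It fell 6.83-fold after serotonin (-2.77) and rose 2.72-fold after TNF-α (1.45), and all 6 probes with a ratio between the stimulated arrays were lower after serotonin (-4.67 to -1.53). FABP5 fell 3.32-fold after serotonin (-1.73, with 4 probes from -1.74 to -1.66) and stood at 0.01 after TNF-α. FABP4 and FABP5 were thus lower than in unstimulated pMA on the serotonin array, on which LPL and CD36 were highest. Other binding proteins did not share this: FABP3 and FABP6 stood at 0.08 and -0.15 after serotonin. FABP1 was well above background on the serotonin array alone, and FABP2 and FABP7 on no array. SLC27A1, SLC27A3 and SLC27A4 stood at -0.19, -0.45 and 0.42 after serotonin and at -0.11, 0.14 and 0.41 after TNF-α.

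No other acyl-CoA synthetase or thioesterase passed 2-fold: 4 of 22 were on the array, all 4 had ratios, and the medians were -0.08, 0.14 and -0.17 on differentiation, serotonin and TNF-α. Of 11 nuclear receptors and adipogenic factors 8 were on the array. PPARG, the nuclear receptor that drives adipocyte differentiation, rose 2.10-fold on differentiation (1.07). Its 3 probes ran from 0.96 to 1.52, and its levels were low, at -4.28 in PIP cells and -3.21 in unstimulated pMA. CEBPB rose 3.27-fold (1.71). After serotonin PPARG stood at -0.08 and after TNF-α at 0.90, and no gene of this list passed 2-fold after either stimulus. PPARA was dim in both PIP cells and unstimulated pMA.

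**Figure D4:**
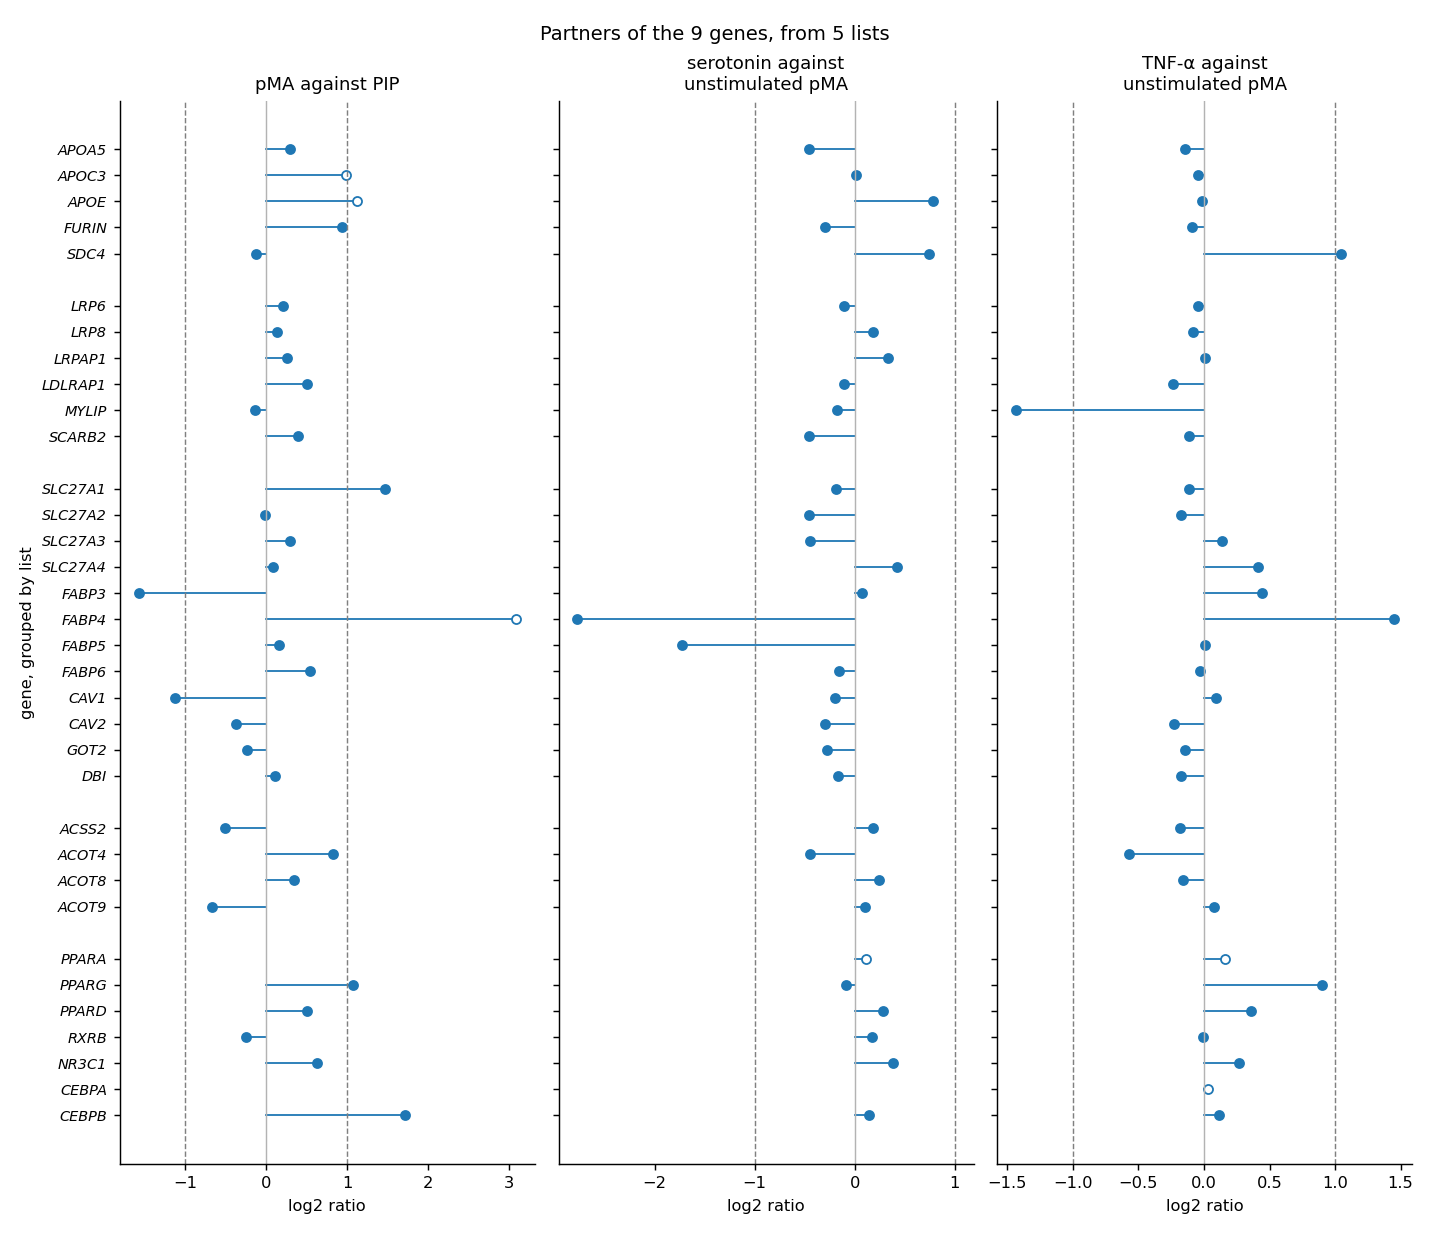
log2 ratios of the partner genes with a ratio, grouped by list from top to bottom: LPL partners, lipoprotein receptors, fatty acid transport and binding, acyl-CoA synthetases and thioesterases, PPAR and related factors (horizontal scales differ; dashed lines mark 2-fold, open circles lower bounds). FABP4 lies at -2.77 after serotonin and 1.45 after TNF-α, and MYLIP at -1.43 after TNF-α.

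Over the 4 conditions, the genes whose pattern of levels was nearest to each of the 4 genes past 2-fold were sought among 4709 gene symbols well above background on all arrays. With 4 points such likeness is only a description, and the distance given is the Euclidean distance between centred log2 levels. Nearest to LPL were SOCS3, KLF15 and AKR1CL1, at 0.64, 0.65 and 0.65. Nearest to ANGPTL4 were ADAMTS1 (0.60), PLIN2 (0.68), which coats lipid droplets, and CEBPE (0.83). CD36 had no close neighbour, with ADAMTS1 at 1.77, ANGPTL4 at 1.87 and PLIN2 at 2.05. VLDLR lay closest to CYR61 (0.09), HTR1B (0.14) and GBP2 (0.16).

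Some markers of other cells were lower on the serotonin array. The summed level of the 6 preadipocyte and mesenchymal markers on the array, in units of the 75th percentile, was 64.0 in PIP cells, 61.2 in unstimulated pMA, 37.4 after serotonin and 48.3 after TNF-α. Most of this was THY1, at 44.2 in unstimulated pMA and 24.1 after serotonin, and COL1A1 alone of this list fell past 2-fold (-1.41), while PDGFRB and ENG stood at 0.27 and 0.13. That of the 8 skeletal muscle markers was 11.2, 13.7, 8.26 and 14.0, with 4 or 5 of them above background on each array. It was mostly DES, which fell after serotonin (-1.02, with probes from -2.59 to -0.55) while MYOG and PAX7 stood at -0.01 and 0.39. The summed level of the 6 endothelial markers was 1.60, 1.17, 0.52 and 1.17, with 2 or 3 above background. It was mostly PECAM1, which fell after serotonin at its leading probe (-1.46), with probes from -1.46 to -0.44. The 3 macrophage and leukocyte markers summed to 1.41, 1.93, 1.90 and 3.004, nearly all from CD14, with CD163 not above background anywhere. The part of such markers in the LPL, CD36 and VLDLR ratios was not tested. The paper reports significant cell death and less fat in pMA after serotonin, each depending on the dose. The array dose was among those it tried, and its fat was measured days after stimulation. The part of cell death in the serotonin ratios and in these lower marker levels was not tested.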

How the data were processed

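Total RNA of each condition was pooled, labelled with Cy3 and hybridised to a porcine 1-colour array, all 4 on 1 slide. The deposited intensities are gProcessedSignal values of Agilent Feature Extraction (10.7.3.1), background-subtracted by the authors' scanner software. The methods also name a mouse array and a two-colour design, which the files do not show. The deposited value table holds a linear signal, each array divided by 1 constant near its 75th percentile, with no log and no centring, and served as an alternative.

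Control and outlier spots were left out, log2 intensity was reduced by the array's 75th percentile (Python 3.11.15, pandas 2.3.3, limma 3.58.1 for normexp with an offset of 50), and spots of 1 probe were averaged. A probe dim on 1 of 2 arrays gave a lower bound against the higher of its own value and the faintest signal well above background, and none where dim on both. No test was possible with 1 array a group. The scripts were checked on simulated ratios. Alternatives were quantile, median and spike-in scaling, normexp, no filter, a filter on all 4 arrays, the median of probes, the value table and cutoffs of 4-fold and 1.5-fold. The members and gene lists were chosen with earlier results of these data known. Named were all members, partner genes past 2-fold (at most 5 a list and comparison), the transport and LPL genes given, and the 3 nearest patterns. No genome build was named, so no coordinates are given, and the gene names are those of the array.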

Additional observations from a re-analysis of the deposited data

Results flagged for a closer look

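ANGPTL4 stood on opposite sides of unstimulated pMA after the 2 stimuli, with log2 ratios of 0.21 after serotonin and -0.24 after TNF-α. Its overlapping probes at 433 and 567 gave only 0.16 and 0.09 after serotonin, under 2 standard deviations of repeated spots. The difference of 0.44 at the leading probe was not tested. VLDLR had ratios of opposite sign at its leading probe, -1.02 after serotonin and 0.09 after TNF-α, but the latter was under 2 standard deviations of repeated spots and 1 of the 3 probes gave -0.01. The difference of -1.11 between the stimuli was not tested. Both stimulated arrays share the unstimulated array, and each condition has 1 array.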

How the results depend on the processing

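The 9 genes were recomputed under 8 other processing settings. Of the 288 log2 ratios, 229 moved by less than the standard deviation of repeated spots and 59 by more, and no ratio past 2-fold changed sign. The settings with no filter and with a filter on all 4 arrays could not move any ratio, as every leading probe was well above background throughout. Those 36 ratios a setting count among the 229. So do the 36 of the value table, which differs from the main values only by a constant for each array. CD36 and ANGPTL4 rose on differentiation and LPL and CD36 after serotonin under every one of the 8 settings, CD36 on differentiation by 3.66 to 5.50. VLDLR after serotonin did not: with quantile normalization, median scaling, spike-in scaling, normexp background or a 4-fold cutoff 0 genes fell, and at 1.5-fold 3 did. At 4-fold 1 gene rose after serotonin, 0 after TNF-α, and in the direct comparison 0 were higher and 0 lower. At 1.5-fold, 1 gene fell after TNF-α. Higher with serotonin than with TNF-α were 2 genes, CD36 added, with quantile normalization, median scaling, spike-in scaling, the submitters' value table or a 1.5-fold cutoff. Lower were 0 with median scaling. The cause of these changes was not tested. The median log2 ratio of the 9 genes on differentiation was 0.025 with median scaling and 0.70 with spike-in scaling, where that of all genes moved to -0.22 and 0.47. After serotonin it was 0.16 with spike-in scaling and 0.16 with the median over all probes of a gene, and after TNF-α 0.25 with the latter. In the direct comparison it was 0.044 with quantile normalization, 0.0012 with median scaling and 0.064 with the median over all probes. No paired analysis was possible because each group has 1 array. Dim readings limit CD36 in PIP cells, where 2 of 4 probes gave only a bound.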

Other observations

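Other adipocyte genes, chosen after their values were seen, moved apart on the stimulated arrays. CIDEC, a lipid droplet protein, had log2 levels of -4.69 in PIP cells, -0.82 in unstimulated pMA, -0.54 after serotonin and 1.12 after TNF-α, and so rose 3.83-fold with TNF-α. CIDEA, its relative, stood at -1.94 in unstimulated pMA, -4.01 after serotonin and -1.88 after TNF-α, and fell 4.18-fold with serotonin at its 1 probe.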
